A study of Homo sapiens with 10 samples.

Results

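The genes described here are 8 human feedback inhibitors of mitogen-activated protein (MAP) kinase signalling: the dual-specificity phosphatase genes DUSP1, DUSP2, DUSP4, DUSP5, DUSP6 and DUSP10, and the Sprouty genes SPRY1 and SPRY2. They were chosen by gene symbol, and all 8 were found among the 25275 symbols of the deposited expression tables. The tables cover 6 RNA-seq libraries of OCI-LY10 and TMD8, established human cell lines of diffuse large B-cell lymphoma of the activated type. In OCI-LY10 the groups were STAT3 shRNA, with 1 library of shRNA 10 and 1 of shRNA 16, and control shRNA, with 1 library. The TMD8 samples carry the same 3 labels, but the value columns of the TMD8 table bear no names, so they are given as the first, the second and the third column and are not assigned to a shRNA. All cells, the controls included, had received doxycycline (20 ng/ml, 2 days) to switch on their shRNA. The series also holds 4 STAT3 ChIP-seq samples, taken 4 h after the JAK inhibitor AZD1480 or DMSO, which are not analysed here.

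MAP kinases (ERK, JNK and p38) are switched on by phosphorylation of a threonine and a tyrosine in the same loop, and dual-specificity phosphatases remove both phosphates. Sprouty proteins act further up and restrain the path from receptor tyrosine kinases through RAS to ERK. Many of these inhibitors are themselves transcribed in response to MAP kinase activity, which makes them feedback inhibitors and, in B cells, readouts of antigen receptor and RAS-ERK signalling.

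Levels are the deposited FPKM. The unit stands for fragments assigned to a gene per kilobase of its length, scaled to library size, so genes can be compared within a library. How these values were scaled is not given in the sources used here. STAT3, the targeted gene, stood at 11.1 FPKM with shRNA 10 and 10.6 FPKM with shRNA 16, against 16.5 FPKM in the OCI-LY10 control library. Its log2 difference, STAT3 shRNA minus control, was -0.56 (SE 0.10, limma adjusted p = 0.0465). STAT3 no longer passed under a pseudocount of 0.1 FPKM (0.0508) or with all genes kept (0.0688). In TMD8 the STAT3 values were 120, 24.3 and 22.5 FPKM in the first, the second and the third column. The library labelled OCI-LY10 control shRNA stood apart from the other OCI-LY10 libraries. On the log2(FPKM + 1) scale, over 10997 genes without small RNA genes, Pearson's r between it and the 2 STAT3 shRNA libraries was 0.845 each, while between it and the 3 TMD8 columns r was 0.937, 0.940 and 0.962 in column order. Between the 2 STAT3 shRNA libraries r was 0.994. These r values are across genes, which are not independent replicates, and the lines come from separately made tables. All 6 B-cell marker genes were above 1 FPKM in every library, with a summed level of 2298 to 2548 FPKM with STAT3 shRNA, 833 FPKM in the control library and 797 to 952 FPKM in TMD8. Of these, MS4A1, CD79A and CD79B were called higher with STAT3 shRNA, PAX5 did not pass, and CD22 was lower, at 23.1 and 29.3 FPKM with shRNAs 10 and 16, against 62.1 FPKM in the control library. Markers of the activated B-cell type (IRF4, BATF, CD44 and FOXP1) summed to 324 to 358 FPKM with STAT3 shRNA, 875 FPKM in the control library and 962 to 1076 FPKM in TMD8. IRF4 and BATF were lower with STAT3 shRNA and CD44 did not pass. FOXP1 was higher, at 43.2 and 46.4 FPKM with shRNAs 10 and 16, against 23.1 FPKM in the control library. The 5 T-cell markers summed to at most 0.680 FPKM and the 5 myeloid markers to at most 1.60 FPKM in any library, with CD3D, CD2 and MPO listed at 0 in all 6. The 6 fibroblast and epithelial markers summed to 5.57 to 6.02 FPKM with STAT3 shRNA, 7.42 FPKM in the control library and 7.27 to 8.85 FPKM in TMD8. Of these, the epithelial gene EPCAM was at 4.39 FPKM with each STAT3 shRNA and listed at 0 in the other 4 libraries. COL1A1 went the other way, at 0.00823 FPKM and a listed 0 with shRNAs 10 and 16, against 3.60 FPKM in the control library. KRT8 (0.740 and 1.17 FPKM, against 1.96 FPKM in the control library) and DCN (0.0488 FPKM and a listed 0, against 1.14 FPKM) were also lower in value with STAT3 shRNA. The part of these marker differences in the members' levels was not tested. With 1 library per shRNA, STAT3 depletion, a library that is not the one its label names, a difference between lines and any other difference between the control library and the STAT3 shRNA libraries cannot be told apart. Every OCI-LY10 difference given here is between libraries as they are labelled.

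In OCI-LY10 the 2 most abundant of these genes, DUSP2 and DUSP5, fell with STAT3 shRNA, as did the low-level DUSP1 and DUSP4, while SPRY2 rose and DUSP10 did not pass the test. The mean with STAT3 shRNA was 32.3% of the control level for DUSP2 and 19.7% for DUSP5. DUSP4 was listed at 0 with both STAT3 shRNAs, and SPRY2 was near 0 in the control library. DUSP6 and SPRY1 were barely detected in any library. In all, 4 of the 8 genes were called lower and 1 higher (limma, adjusted p below 0.05), where 17.4% of the 11162 genes tested were called lower and 20.3% higher. DUSP6 and SPRY1 did not reach the mean of 1 FPKM needed for the test. DUSP4 passed that filter only through its level in the control library and SPRY2 only through its level in the STAT3 shRNA libraries, so both had to differ, and the count is a description of the genes listed.

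**Figure D1:**
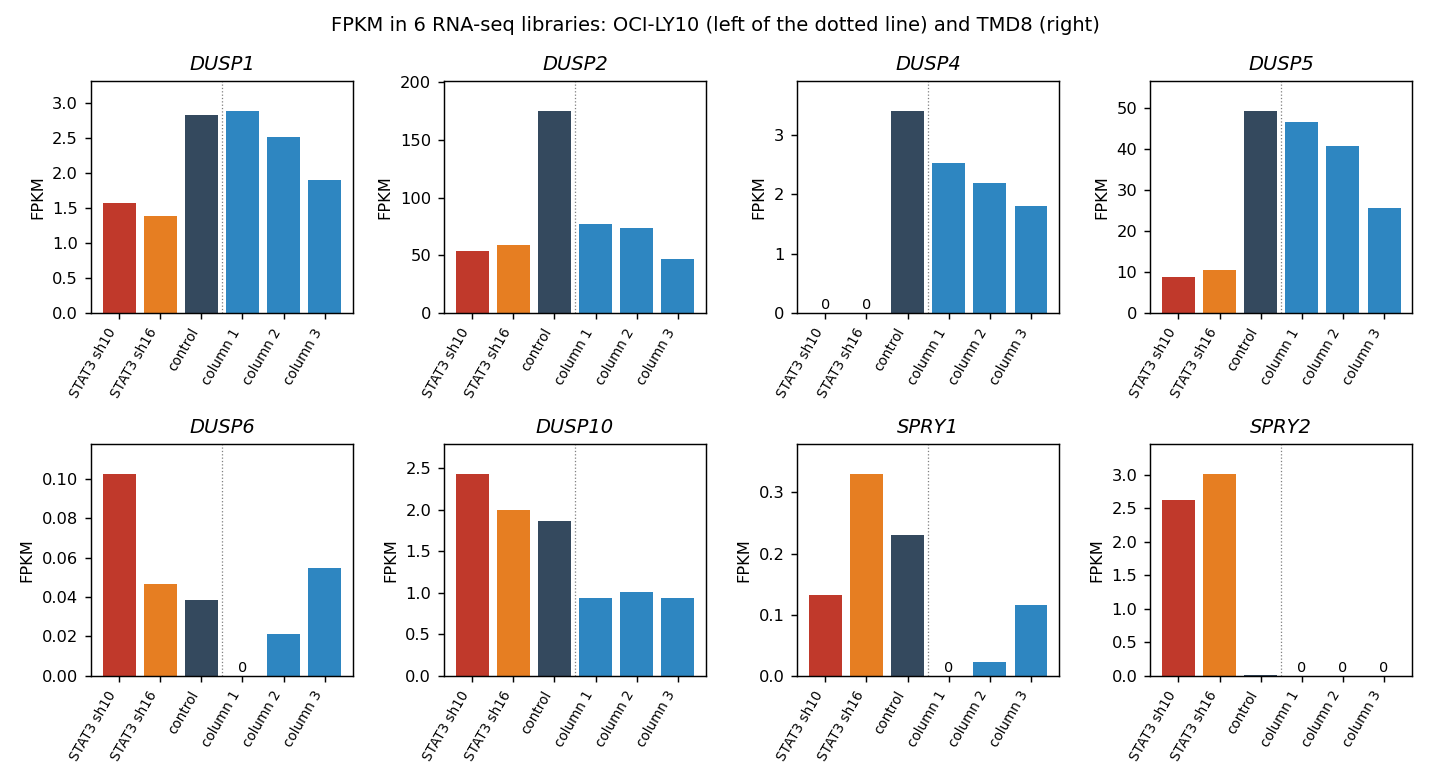
FPKM (y axis, from 0, a different scale in each panel) of the 8 genes in 6 libraries (x axis): OCI-LY10 with STAT3 shRNA 10, STAT3 shRNA 16 and control shRNA, then the 3 unnamed TMD8 columns. Each bar is 1 library, with no error bar because no condition has a second library, and 0 marks a value listed at 0; DUSP4 is 0 with both STAT3 shRNAs and 1.80 to 3.40 FPKM in the other 4 libraries, and SPRY2 shows the opposite pattern.

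DUSP2 encodes a nuclear phosphatase of blood cells that acts on ERK and p38. It was the most abundant member in every library. DUSP2 stood at 54.0 FPKM with shRNA 10 and 58.6 FPKM with shRNA 16, against 175 FPKM in the control library. The 2 STAT3 shRNA libraries lay close together, with a mean of 56.3 ± 3.26 FPKM (SD, n = 2). The log2 difference was -1.62 (SE 0.10, limma adjusted p = 0.0131), and it was -1.67 with shRNA 10 and -1.56 with shRNA 16. In TMD8, DUSP2 was at 77.2, 73.8 and 46.9 FPKM in column order. The OCI-LY10 control library was thus higher for DUSP2 than all 3 TMD8 columns, at 2.65 times their mean, and the STAT3 shRNA libraries lay within the TMD8 range.

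DUSP5 encodes a nuclear phosphatase specific for ERK, which it also holds in the nucleus. It stood at 8.81 FPKM with shRNA 10 and 10.6 FPKM with shRNA 16, against 49.2 FPKM in the control library. The mean with STAT3 shRNA was 9.72 ± 1.28 FPKM (SD, n = 2), and the log2 difference was -2.23 (SE 0.16, limma adjusted p = 0.0147). TMD8 had 46.5, 40.7 and 25.7 FPKM in column order. The STAT3 shRNA libraries were lower in DUSP5 than every other library, and the OCI-LY10 control library was 1.31 times the TMD8 mean. DUSP5 has processed copies elsewhere in the genome, DUSP5P1 and DUSP5P2, and how the authors' counting treated them is not given in the sources used here. DUSP2 and DUSP5 together made up 90.2% and 91.1% of the summed FPKM of the 8 genes in the STAT3 shRNA libraries, 96.4% in the control library and 93.8% to 95.2% in TMD8. The balance between them differed: DUSP2 was 6.13 and 5.52 times as high as DUSP5 with shRNAs 10 and 16, 3.55 times in the control library and 1.66 to 1.83 times in TMD8.

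DUSP1 encodes an inducible nuclear phosphatase that acts mainly on p38 and JNK. It was a low-level gene, at 1.58 FPKM with shRNA 10 and 1.38 FPKM with shRNA 16, against 2.84 FPKM in the control library. The log2 difference was -0.63 (SE 0.11, limma adjusted p = 0.0405). DUSP1 missed the threshold when the pseudocount was 0.1 FPKM (limma adjusted p = 0.0509), when low genes were kept (0.0833) and after quantile normalization (0.0712), and its difference was -0.27 when the pseudocount was 5 FPKM. In TMD8, DUSP1 was at 2.89, 2.52 and 1.90 FPKM in column order. The control library lay within that range and both STAT3 shRNA libraries lay below it.

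DUSP4 encodes a nuclear phosphatase closely related to DUSP1. It was listed at 0 with both STAT3 shRNAs, against 3.40 FPKM in the control library. TMD8 had 2.52, 2.20 and 1.80 FPKM. An exact 0 in a table without counts can be a failed estimate, so no fold is given. On the log2(FPKM + 1) scale the difference was -2.14 (limma adjusted p = 0.00752). Its size depends on the pseudocount, being -5.13 at 0.1 FPKM and -0.75 at 5 FPKM. The 2 zeros give no spread, so the SE of 0.07 comes from the other genes' variances. DUSP4 was thus seen in 4 of 6 libraries, and the 2 without it were the OCI-LY10 STAT3 shRNA libraries.

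DUSP10 encodes a phosphatase selective for JNK and p38. It stood at 2.43 FPKM with shRNA 10 and 2.00 FPKM with shRNA 16, against 1.86 FPKM in the control library. The log2 difference was 0.16 (95% interval -0.30 to 0.63, limma adjusted p = 0.399), an interval that includes both no difference and a rise of 1.5-fold. In TMD8 it was at 0.941, 1.01 and 0.931 FPKM, lower than in all 3 OCI-LY10 libraries. DUSP6, the cytoplasmic ERK-specific phosphatase and a common marker of ERK activity, was at 0.103 FPKM with shRNA 10 and 0.0468 FPKM with shRNA 16, against 0.0388 FPKM in the control library. TMD8 had a listed 0, 0.0211 and 0.0546 FPKM. All 6 values are close to 0. Both STAT3 shRNA values lay above the control value, and the STAT3 shRNA range overlapped the TMD8 range. DUSP6 also shares its locus with the read-through gene POC1B-DUSP6, so such low values are uncertain.

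SPRY2, an inhibitor of growth factor signalling to ERK, ran opposite to DUSP4. It stood at 2.62 FPKM with shRNA 10 and 3.01 FPKM with shRNA 16, against 0.0162 FPKM in the control library. All 3 TMD8 columns were listed at 0. The log2 difference on the log2(FPKM + 1) scale was 1.91 (SE 0.11, limma adjusted p = 0.0122), and it was 4.65 at a pseudocount of 0.1 FPKM and 0.64 at 5 FPKM. SPRY1, its close relative, was at 0.131 FPKM with shRNA 10 and 0.330 FPKM with shRNA 16, against 0.230 FPKM in the control library. The control value of SPRY1 lay between the 2 STAT3 shRNA values, and TMD8 had a listed 0, 0.0230 and 0.117 FPKM. In bulk RNA, fewer expressing cells and less RNA per cell cannot be told apart for any of these genes.

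**Figure D2:**
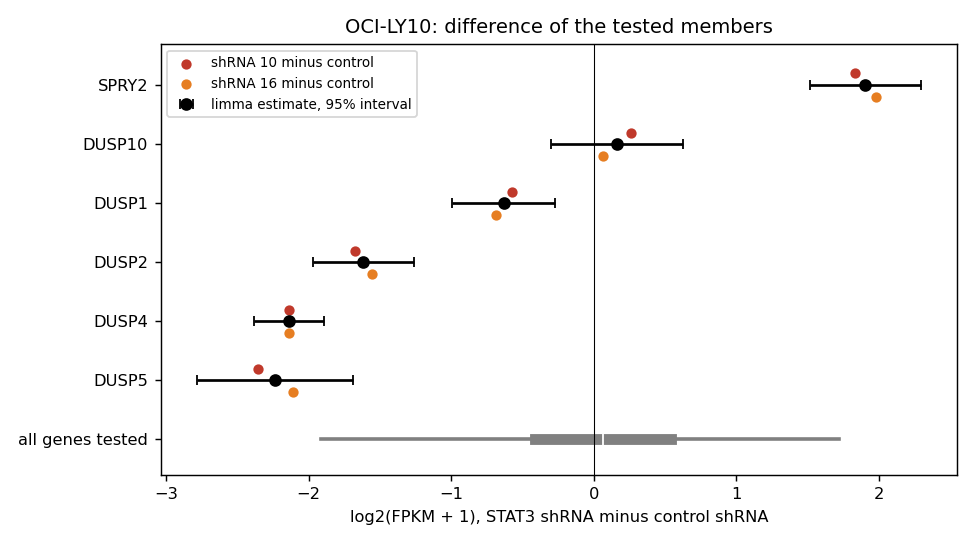
Difference in log2(FPKM + 1) between STAT3 shRNA and control shRNA libraries of OCI-LY10 (x axis) for the 6 genes that were tested (y axis). Black points are limma estimates with 95% intervals, coloured points are the single shRNAs, and the grey bar gives all 11162 genes tested (thin line, 5th to 95th percentile, -1.92 to 1.72; thick line, quartiles); DUSP4 and DUSP5 lie below its 5th percentile and SPRY2 above its 95th.

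Ranked by FPKM within the STAT3 shRNA libraries, the order was DUSP2, DUSP5, SPRY2, DUSP10, DUSP1, SPRY1, DUSP6 and DUSP4 with both shRNAs. Neighbours in this order did not overlap between the 2 libraries, though SPRY1 and DUSP6 are too low to be ranked firmly. In the control library the order was DUSP2, DUSP5, DUSP4, DUSP1, DUSP10, SPRY1, DUSP6 and SPRY2. TMD8 had DUSP2, DUSP5, DUSP1, DUSP4 and DUSP10 in all 3 columns, with DUSP1 and DUSP4 overlapping, and DUSP6, SPRY1 and SPRY2 at or near 0. DUSP2 lay at percentile 89.8 and 90.6 of the genes above 0 in the STAT3 shRNA libraries, 97.2 in the control library and 89.0 to 93.6 in TMD8. Between the 2 STAT3 shRNAs, shRNA 16 over shRNA 10 gave ratios of 0.823 to 1.20 for the 5 members of at least 1 FPKM, with no test because each shRNA has 1 library.

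The levels in the library labelled OCI-LY10 control shRNA were set beside both other sets of libraries. Among the 5 members whose mean over all 6 libraries reached 1 FPKM, 4 were nearer to the TMD8 mean than to the STAT3 shRNA mean in log2(FPKM + 1). These were DUSP1, DUSP2, DUSP4 and DUSP5, while DUSP10 was nearer to the STAT3 shRNA mean. For DUSP2 the control library lay above both means, at log2 distances of 1.42 to TMD8 and 1.62 to the STAT3 shRNA libraries. Over all 11340 genes at that level, the share nearer to TMD8 was 60.5%. The median absolute log2 difference of the control library over the 5 members was 1.62 to the STAT3 shRNA mean and 0.48 to the TMD8 mean, beside 0.49 and 0.33 over all genes. DUSP4, listed at 0 with both STAT3 shRNAs, reached the mean of 1 FPKM only through the control and TMD8 libraries. Its nearness to TMD8 thus owes in part to the filter, and the 0.48 is its own distance. The count and the medians of the members are therefore descriptions. The levels come from separately made tables, so no test was run between the lines.

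**Figure D3:**
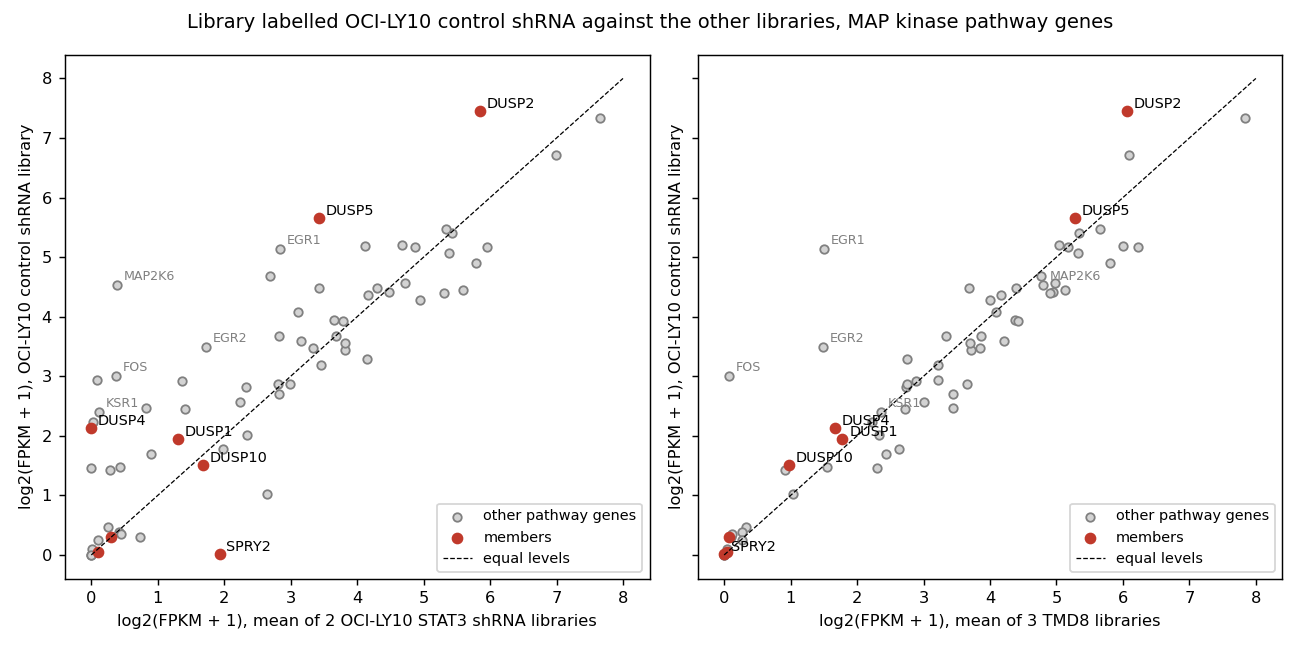
Level in the library labelled OCI-LY10 control shRNA (y axis, log2(FPKM + 1)) against the mean of the 2 OCI-LY10 STAT3 shRNA libraries (left, x axis) and of the 3 TMD8 libraries (right, x axis). Red points are the 8 genes, grey points the other MAP kinase pathway genes listed in the text, and the dashed line marks equal levels; DUSP5 and SPRY2 are far from the line on the left and near it on the right, while DUSP2, EGR1, EGR2 and FOS are off the line on both sides.

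Within TMD8 the third column was the lowest for all of the 5 members with a TMD8 mean of at least 0.5 FPKM (DUSP1, DUSP2, DUSP4, DUSP5 and DUSP10). Over all 10888 genes with a TMD8 mean of at least 1 FPKM, the third column was the lowest in 35.5% and the highest in 44.8%. The highest column was 1.81 times the lowest for DUSP5, 1.65 times for DUSP2, 1.52 times for DUSP1, 1.40 times for DUSP4 and 1.09 times for DUSP10. On the log2(FPKM + 1) scale, 2 of the 4 members with a mean of at least 1 FPKM, DUSP2 and DUSP5, spanned at least 1.5-fold, where 11.5% of all genes did so. Small RNA genes took 22.8%, 28.9% and 43.4% of the summed FPKM in column order. In OCI-LY10 they took 57.85% and 58.19% with shRNAs 10 and 16, against 49.05% in the control library. The part of these shares in the levels of the members, within or between the lines, was not tested. The TMD8 columns follow no assigned order of conditions, so the TMD8 ranges describe libraries and not an effect of STAT3.

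Promoter sequence is shown for DUSP1 and DUSP2, which fell with STAT3 shRNA, and for SPRY2, which rose, so that they can be compared for sites of signal-responsive factors. The sequences are promoter windows from RefSeq (GRCh38.p14), which were at hand for 6 of the 8 genes and not for DUSP4 and DUSP5. They run 5′ to 3′ over the 250 bases before the annotated start, on the gene's strand. Capitals mark matches on either strand to the cAMP response element TGACGTCA, the shorter core TGACG, the STAT site TTCNNNGAA, the AP-1 site TGANTCA and the E-box CACGTG. DUSP1 lies at chr5:172771196-172771445, minus strand, DUSP2 at chr2:96145441-96145690, minus strand, and the first of 3 SPRY2 starts at chr13:80341127-80341376, minus strand.
DUSP1: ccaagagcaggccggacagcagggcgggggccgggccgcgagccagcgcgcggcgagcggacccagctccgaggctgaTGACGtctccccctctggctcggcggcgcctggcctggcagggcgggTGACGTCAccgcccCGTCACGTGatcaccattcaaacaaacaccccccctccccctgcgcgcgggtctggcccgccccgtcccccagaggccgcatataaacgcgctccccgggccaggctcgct
DUSP2: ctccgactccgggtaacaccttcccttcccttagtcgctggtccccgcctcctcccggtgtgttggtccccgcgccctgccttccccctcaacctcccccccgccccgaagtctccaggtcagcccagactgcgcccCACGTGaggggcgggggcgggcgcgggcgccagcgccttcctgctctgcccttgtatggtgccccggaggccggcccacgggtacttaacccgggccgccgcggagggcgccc
SPRY2: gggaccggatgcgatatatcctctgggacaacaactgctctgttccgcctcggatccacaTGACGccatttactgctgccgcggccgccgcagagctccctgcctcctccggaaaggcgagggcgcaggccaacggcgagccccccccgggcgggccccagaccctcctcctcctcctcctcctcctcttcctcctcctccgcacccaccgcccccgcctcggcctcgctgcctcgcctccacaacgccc

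DUSP1 held a full cAMP response element whose first base lies 125 bases before the start, a site found in 1.65% of 35093 promoter windows of this length. It also held 4 cores, 2 of which lie within that element and 1 of which overlaps an E-box. The core was found in 21.2% of windows and the E-box in 6.34%. DUSP2 held an E-box that begins 113 bases before the start and no core, and SPRY2 a core that begins 190 bases before it. The STAT site, found in 6.57% of windows, was not in these 3 windows, and among all windows of the members it occurred only in the second of 2 for SPRY1. The AP-1 site (6.57% of windows), the CArG box of serum response factor (1.16%) and the NF-kB site (9.95%) were in no window of the members. The ETS site CCGGAAG (8.52%) was only in that second SPRY1 window. DUSP4 and DUSP5 had no window, so neither was searched for any of these sites. A match is a string of letters and not evidence of binding, and its absence from so short a window says nothing of more distant sites.

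In the wider phosphatase and Sprouty families, 2 of the 7 tested genes fell and 5 did not pass, where 17.4% of all genes tested fell. Of 7 further phosphatase genes, 5 were tested and 1 fell, DUSP22, a small phosphatase linked to JNK signalling, at 15.8 and 16.8 FPKM with shRNAs 10 and 16, against 35.4 FPKM in the control library (log2 difference -1.07, limma adjusted p = 0.0192). TMD8 had more DUSP22, at 79.0, 65.1 and 44.5 FPKM. DUSP9, another cytoplasmic ERK phosphatase, was too low for the test and was named after its values were seen, because its pattern was like that of DUSP4. DUSP9 was listed at 0 with both STAT3 shRNAs, against 1.76 FPKM in the control library, and had 3.20 to 5.20 FPKM in TMD8. The median log2 difference of the 5 tested phosphatases was -0.49, against 0.06 over all genes tested. Among 5 Sprouty and SPRED genes, 2 were tested and 1 fell, SPRED1, an inhibitor of RAS activation, at 1.68 and 1.66 FPKM with shRNAs 10 and 16, against 4.49 FPKM in the control library (log2 difference -1.04, adjusted p = 0.0177, limma). The 3 that were not tested were below the mean of 1 FPKM.

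Among the kinases on which these phosphatases act, MAPK3, MAPK8 and MAPK9 did not pass the test. MAPK3, which encodes ERK1, was at 35.0 and 43.5 FPKM with shRNAs 10 and 16, against 43.4 FPKM in the control library (95% interval -0.79 to 0.49, limma adjusted p = 0.560). For the JNK genes the 95% intervals were -0.05 to 0.69 for MAPK8 (limma adjusted p = 0.123) and -0.52 to 0.22 for MAPK9 (0.345). MAPK14, which encodes the main p38 kinase, fell to 8.16 and 7.15 FPKM with shRNAs 10 and 16, against 15.9 FPKM in the control library (log2 difference -0.96, adjusted p = 0.0308, limma). Another p38 gene, MAPK11, rose to 4.53 and 5.95 FPKM, against 1.04 FPKM in the control library (log2 difference 1.60, adjusted p = 0.0270, limma). The p38 target kinase gene MAPKAPK3 fell by 0.53 on the log2 scale (limma adjusted p = 0.0434).

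Upstream of these kinases, 4 of the 21 genes of the RAS-ERK cascade rose, 4 fell and 13 did not pass, with a median log2 difference of 0.11. These shares are near the 20.3% of all genes tested that rose and the 17.4% that fell. KSR1, a scaffold for the kinases of the ERK cascade, stood at 0.121 and 0.0451 FPKM with shRNAs 10 and 16, against 4.28 FPKM in the control library and 3.83 to 4.39 FPKM in TMD8 (log2 difference -2.28, limma adjusted p = 0.00840). KSR1 passed the filter on low values only through the control library, so it had to differ. The same holds for RASGRP1, named for this reason alone and also counted among those that fell. It was at 0.752 and 0.802 FPKM with shRNAs 10 and 16, against 4.51 FPKM in the control library. SOS1, a RAS activator, fell to 5.72 and 5.17 FPKM, against 24.8 FPKM in the control library and 23.8 to 28.6 FPKM in TMD8 (adjusted p = 0.0121, limma). MAP2K2, an ERK kinase, rose by 1.14 on the log2 scale (limma adjusted p = 0.0272), and RASGRP3, a RAS activator of B cells, by 0.87 (limma adjusted p = 0.0298). Of 12 tested genes of the JNK and p38 cascades, 1 rose, 3 fell and 8 did not pass, beside 20.3% higher and 17.4% lower over all genes tested. The p38 kinase gene MAP2K6 showed the largest difference of that list, at 0.198 and 0.426 FPKM with shRNAs 10 and 16, against 22.1 FPKM in the control library and 22.9 to 29.8 FPKM in TMD8. MAP2K6, too, passed the filter only through the control library.

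Of 13 transcripts known to respond to ERK, 9 were tested, 7 fell and 2 did not pass, where 17.4% of all genes tested fell. Of the 7, FOS, PHLDA1, CCND1 and ETV5 passed the filter only through the control library and had to be lower, so the count is a description and not support for a direction. The other 3 were EGR1, EGR2 and IER2. EGR3, which was too low to test, was at 0.368 and 0.953 FPKM with shRNAs 10 and 16, against 0.240 FPKM in the control library. PHLDA1, a stress- and growth-factor-induced gene, stood at 0.0907 and 0.0339 FPKM with shRNAs 10 and 16, against 6.65 FPKM in the control library and 7.51 to 9.55 FPKM in TMD8. The AP-1 gene FOS was at 0.362 and 0.231 FPKM with shRNAs 10 and 16, against 7.01 FPKM in the control library (limma adjusted p = 0.00879). ETV5, an ETS factor induced by ERK, fell by 0.81 on the log2 scale (limma adjusted p = 0.0205) and the immediate early gene IER2 fell by 1.05 (limma adjusted p = 0.0191). For FOS, EGR1, EGR2 and IER2 the control library was higher than all of the other 5 libraries. IER2 was at 9.61 and 9.83 FPKM with shRNAs 10 and 16, against 21.3 FPKM in the control library, and at 8.07 to 14.0 FPKM in TMD8. In TMD8, FOS was at 0.0824, 0.0277 and 0.0512 FPKM. EGR1 was at 5.73 and 6.57 FPKM with shRNAs 10 and 16, against 34.1 FPKM in the control library, and at 1.20 to 2.83 FPKM in TMD8. EGR2 was at 2.14 and 2.47 FPKM, against 10.3 FPKM in the control library, and at 1.46 to 2.15 FPKM in TMD8. EGR1, EGR2, EGR3 and CCND1 were named after their values were seen.

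**Figure D4:**
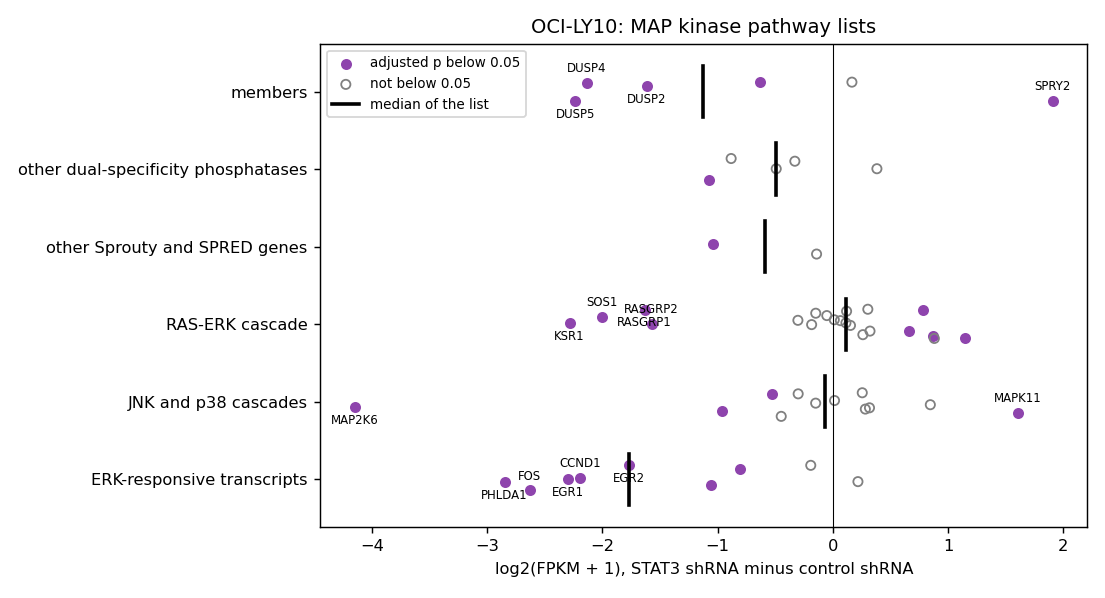
Difference in log2(FPKM + 1) between STAT3 shRNA and control shRNA libraries of OCI-LY10 (x axis) for each tested gene of the 8 members and 5 further lists (y axis). Each point is a gene, filled where the limma adjusted p was below 0.05, black bars are list medians, and genes beyond 1.5 in size are named; genes of the RAS-ERK cascade lie on both sides of 0, and 7 of 9 ERK-responsive transcripts were called lower, 4 of them tested only because of their level in the control library.

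The genes whose profiles over the 6 libraries were most like each member were found by the root mean square difference of log2(FPKM + 1), each profile centred on its own mean, among 10980 genes. DUSP1 was nearest to RAC1 (0.06) and PXMP2 (0.07), and DUSP10 to TRPC4AP (0.03) and ZNF142 (0.04). Since DUSP1 and DUSP10 vary little, their distances are small by construction. DUSP4 was nearest to DENND3 (0.11) and CLGN (0.12), and DUSP5 to LINC00908 (0.09) and SGK1 (0.14), a kinase gene at 0.257 and 0.311 FPKM with shRNAs 10 and 16, against 5.01 FPKM in the control library and 2.18 to 6.20 FPKM in TMD8. DUSP2 was nearest to the histone gene HIST1H2BK (0.11) and the inflammasome adaptor gene PYCARD (0.20). Among the members themselves, DUSP4 and DUSP5 were the nearest pair of those above 1 FPKM (0.19). The 6 libraries fall into few clusters and come from separate tables, so these likenesses are descriptions.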

How the data were processed

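RNA-seq of 6 libraries was analysed. Per the labels' protocols, a TruSeq RNA kit was used. The authors deposited FPKM values, with 1 value per gene and library, in 1 table per line. Per the submitters' processing notes, TopHat, Bowtie2 and hg19 were used, in roles and versions not stated. How FPKM were computed and scaled, on which annotation and whether by strand, is not given in the sources used here. OCI-LY10 columns were matched to samples by name. The other 3 columns have no names and were tied to TMD8 because the labels name that table for those samples. Each table has 25277 rows, and rows of repeated symbols were summed.

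The depth itself is unknown, which leaves no counting intervals. From ratios of values under 0.1 FPKM, depth relative to shRNA 10 was 0.731 for shRNA 16 and 1.52 for the control library. Relative to the first TMD8 column it was 0.963 for the second and 0.867 for the third.

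The 11162 genes whose OCI-LY10 mean reached 1 FPKM were tested on log2(FPKM + 1) with limma 3.58.1 in R 4.3.3. Its empirical Bayes fit with a trend was two-sided, and p-values were adjusted over all genes by Benjamini-Hochberg, with a threshold of 0.05. This scale understates the change of low genes. The 2 STAT3 shRNAs served as replicates, with 1 residual and 1.64 prior degrees of freedom, and the control has none, so its spread was assumed equal to theirs. The p-values measure only the spread between these libraries, which may be technical. The fit was tested on simulated data in which the control library had the same spread as the STAT3 shRNA libraries. That test could not check the equal spread assumed for the control.

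No test was run within TMD8 or between tables. The members, gene lists and tests were chosen with earlier results of these data known. Named genes are the members, STAT3, and up to 4 called genes per list, the 2 highest and 2 lowest differences, with the direct substrates of the phosphatases. Some of what this rule names is not reported here. Likeness was computed as stated where it is given. Alternatives varied the pseudocount, filter, scaling, small RNA genes and libraries.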

Additional observations from a re-analysis of the deposited data

How the results depend on the processing

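DUSP2 and DUSP5 were lower past the threshold under every alternative that gave a test (limma). DUSP4 and SPRY2 also kept their calls where tested, but both passed the filter only through the group where they are high, so this says nothing of stability. With genes of mean 5 FPKM or more only, 0 members were called higher and 2 lower, because DUSP1, DUSP4, DUSP10 and SPRY2 are below that level. DUSP1 lost its call with a pseudocount of 0.1 FPKM, with no filter and with quantile normalization, which left 3 members lower in each case. STAT3 lost its call with that pseudocount (adjusted p = 0.0508) and with no filter (adjusted p = 0.0688). Over all genes, 1299 were higher with no filter on low values, against 2263 as reported, and 1178 were lower at a mean of 5 FPKM or more, against 1943. With 1 STAT3 shRNA library left out there is no test. Members at least 1.5-fold lower than the control then numbered 3 to 4 and at least 1.5-fold higher 1 with either left out, and over all genes 2181 to 2243 were lower and 2618 to 2623 higher. DUSP1 fell by 0.57 on the log2 scale without shRNA 16 and so missed that fold. The number of TMD8 members spanning at least 1.5-fold was 2 under each pseudocount and with median-of-ratios scaling. The control library cannot be left out, so every difference rests on it. Low levels, as of DUSP6 and SPRY1, are limited by depth.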
